A study of Mus musculus with 9 samples.

Results

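The 7 genes described here encode adhesion molecules with which circulating leukocytes enter tissue: the selectins Selp and Sele, the selectin ligand Selplg, the intercellular adhesion molecules Icam1 and Icam2, and the junctional adhesion molecules Jam2 and Jam3. They were taken by gene symbol, and every non-control probe of each was taken: 9 of the 39429 probes on the array. To be kept, a probe had to carry the scanner software's mark for a signal well above background on 2 or more arrays, and the brightest probe stood for its gene. Of the 7 genes, 6 passed that filter and were tested among 23878 genes and unnamed transcripts, and Sele did not.

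The RNA came from the kidney cortex of mice 12 to 16 weeks old, 5 days after the right ureter was tied off (unilateral ureteral obstruction, UUO), and from healthy kidneys. Wild-type mice gave 2 healthy and 2 UUO arrays, and mice without Notch3 (Notch3-/-), a receptor of the Notch family known from pericytes and smooth muscle cells of vessels, gave 2 healthy and 3 UUO arrays. The design text names the untouched left kidneys as the comparison. The labels tie no array to a mouse and leave unsaid whether arrays within a group are separate mice, so the p-values may measure technical spread only. The Notch3-/- genotype is given without the allele, and no group carries another named allele or agent. Such a cortex holds tubules, glomeruli, vessels and blood cells together, so fewer cells of a type and less RNA per cell cannot be told apart.

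Leukocytes leave the blood in steps. Selectins on activated endothelium catch passing cells through sugars carried on ligands such as PSGL-1, the product of Selplg, and the cells then roll along the vessel wall. Integrins of the leukocyte grip Icam1 and Icam2 for firm arrest, and the junctional adhesion molecules at the contacts between endothelial cells take part in the passage through the wall. In many tissues Icam1 and Sele are switched on by tumour necrosis factor and interleukin-1 through NF-kB, whereas Icam2 is present on resting endothelium.

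On each array, 65.3% to 73.2% of the 43020 non-control spots were well above background, and the array's 75th percentile was the common scale: all levels below are log2 signals relative to it, and the levels of different probes are not comparable. Notch3 itself, the check of the labels, stood at -0.26 and -0.50 on the wild-type healthy arrays and at 0.68 and 0.92 on the wild-type UUO arrays. It was at -5.39 to -3.63 on the 5 Notch3-/- arrays. The Notch3-/- UUO arrays 2 and 3 stood apart from all others: Xist, an RNA of female cells, was at 0.18 and 0.00 there against -5.71 or below, and the summed signal of 8 adrenal cortex markers was 224 and 282 times the 75th percentile against 0.202 to 1.29. For the 6 tested genes, obstruction differences in Notch3-/- kidneys are therefore given with and without these arrays, as alternatives chosen after seeing the data. So are the UUO genotype differences of Icam1, Selp and Jam2 and the differences of responses. The calls in the gene lists are also counted with a term for these arrays. Most other values, among them those of dimmer probes, single list genes and cell type markers, are given with them only. Notch3-/- UUO array 1, the one left without them, had the highest summed signal of 8 proximal tubule markers among the UUO arrays (230, against 84.3 to 138). Among the UUO arrays it also had the lowest levels of Icam1, of Selp and of the brighter Jam2 probe. The part of these markers in the results was not tested. All Notch3-/- arrays were scanned on 1 day and the wild-type arrays on 3 other days, so genotype and scan day cannot be told apart. The wild-type healthy and wild-type UUO arrays shared no slide and no scan day. In wild-type kidneys obstruction can therefore not be told apart from slide and scan day either.

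The start regions of 3 of the 7 genes were in the RefSeq promoter table (build GRCm38.p6), and the 250 bases before each start are shown because Icam1, Sele and Selp are the members known as inducible on endothelium. Capitals mark the letters of an NF-kB-type motif, GGNNNTTCC, on either strand, and of a STAT-type motif, TTCNNNGAA.
Icam1 promoter (chr9:21015690-21015939, + strand): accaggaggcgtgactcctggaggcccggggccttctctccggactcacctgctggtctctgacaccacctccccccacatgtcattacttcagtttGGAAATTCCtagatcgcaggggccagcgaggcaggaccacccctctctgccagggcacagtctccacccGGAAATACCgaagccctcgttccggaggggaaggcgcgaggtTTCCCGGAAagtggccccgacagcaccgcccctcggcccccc
Selp promoter (chr1:164115014-164115263, + strand): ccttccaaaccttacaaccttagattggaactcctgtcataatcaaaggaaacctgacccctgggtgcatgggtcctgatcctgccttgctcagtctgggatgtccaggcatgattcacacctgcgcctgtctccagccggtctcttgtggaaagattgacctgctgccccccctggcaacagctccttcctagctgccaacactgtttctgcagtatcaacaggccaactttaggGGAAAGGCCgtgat
Sele promoter (chr1:164047984-164048233, + strand): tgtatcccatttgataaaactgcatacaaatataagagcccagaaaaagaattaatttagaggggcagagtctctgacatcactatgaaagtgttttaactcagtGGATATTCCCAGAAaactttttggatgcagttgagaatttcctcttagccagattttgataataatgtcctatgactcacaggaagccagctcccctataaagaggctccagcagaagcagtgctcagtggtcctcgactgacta
In the Icam1 window the NF-kB-type letters lay 153 bases before the start, where they read on both strands, and again 84 bases before it on the minus strand, with the STAT-type letters 42 bases before it. The Sele window held the NF-kB-type letters 145 bases before the start, overlapping STAT-type letters at 140, and TATAAA at 49. The Selp window held the NF-kB-type letters once, 14 bases before the start on the minus strand. Of 32851 mouse promoter windows of this length, 15.7% held GGNNNTTCC, 7.02% held TTCNNNGAA and 12.4% held TATAAA on either strand. GTGGGAA, the letters of the Notch partner RBPJ, was in 5.42% of the windows and in none of these 3. A match describes the letters and is not a measured binding site.

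Obstruction was accompanied by a rise of 4 of the 6 tested genes in wild-type kidneys: Icam1, Selplg, Selp and Jam2. The same 4 symbols passed the test in Notch3-/- kidneys, and in neither genotype did a member fall. The Jam2 calls rest on its brighter probe only, and the calls of Selp and Jam2 were lost under some alternative settings. Icam2 and Jam3 did not pass the test in either genotype. The question behind these comparisons is which genes of leukocyte entry respond to the tied ureter. A gene was called at an adjusted p (limma, Benjamini-Hochberg over all 23878) under 0.05. Rises at that threshold made up 14.1% of all genes tested in wild-type and 13.3% in Notch3-/- kidneys, and falls 11.7% and 13.9%. The median log2 difference of the 6 members was 1.44 in wild-type and 1.84 in Notch3-/- kidneys, and 1.31 and 1.0 with Selp, which passed the filter through its UUO arrays only, at its lower bound. Over all genes tested it was 0.04 and -0.07.

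**Figure D1:**
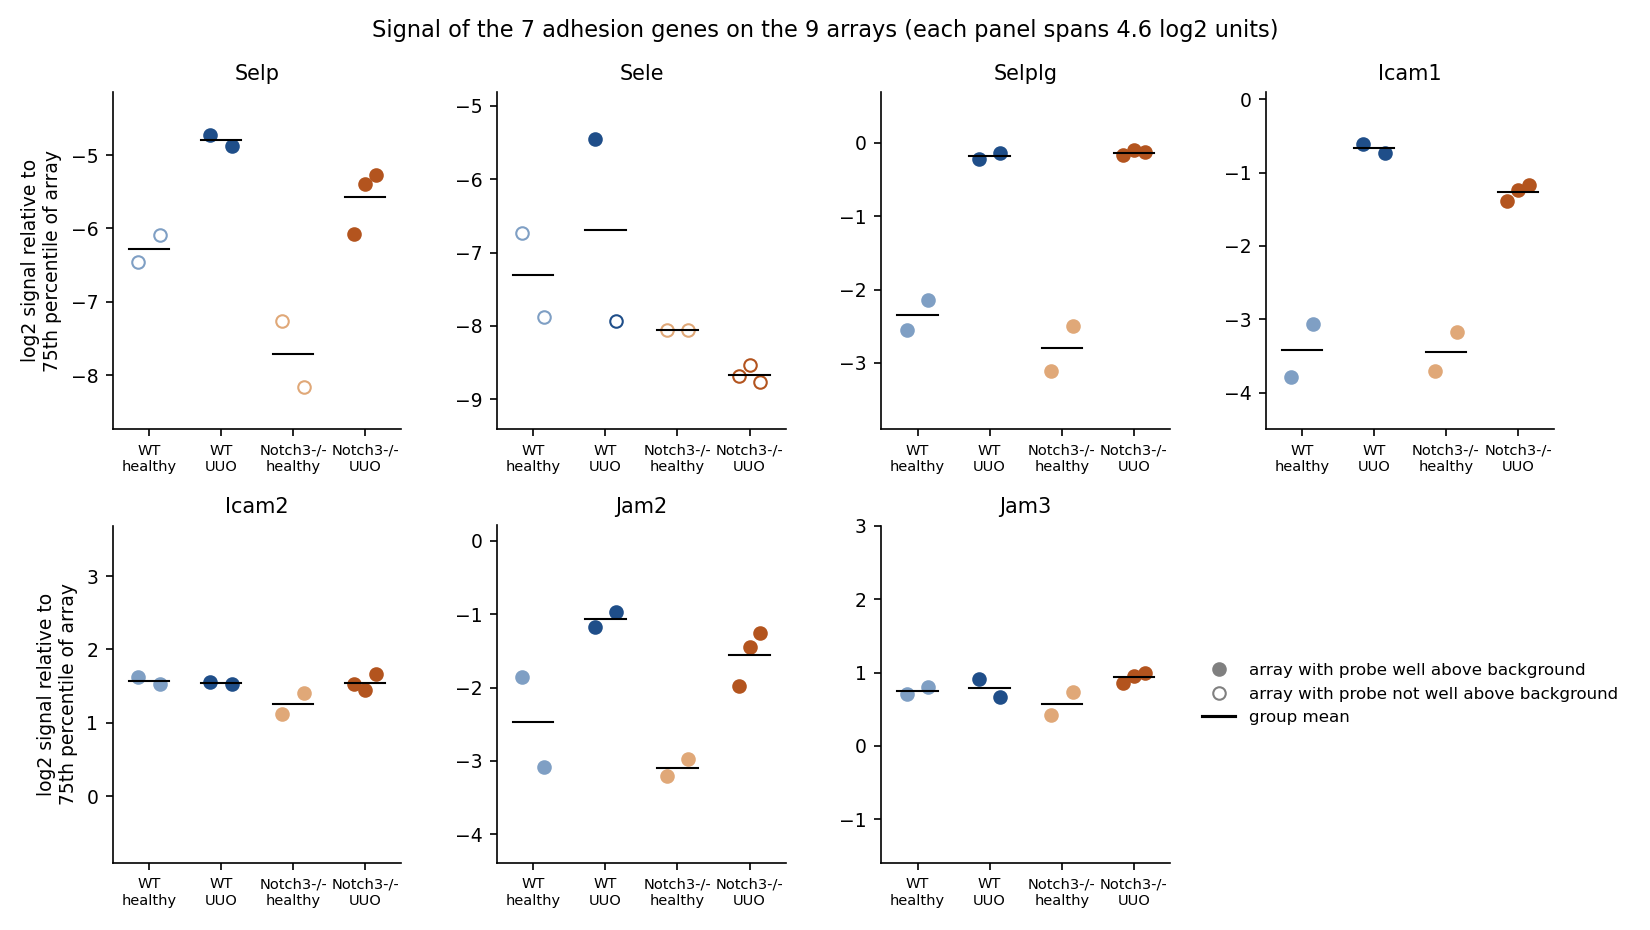
Level of each of the 7 genes on the 9 arrays (y axis, log2 signal relative to the array's 75th percentile; x axis, group; points, arrays; lines, group means). Open points are arrays on which the probe was not well above background, which holds for all healthy arrays of Selp and for 8 of 9 arrays of Sele; the UUO arrays of Icam1 and Selplg lie above all healthy arrays, while those of Icam2 and Jam3 share the healthy range or lie just beside it.

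Selp encodes P-selectin, which endothelial cells and platelets keep in storage granules and bring to the surface on activation. Its probe (A_51_P211854) is spotted 10 times on each array. The mean over spots was -6.46 and -6.09 on the wild-type healthy arrays, -4.72 and -4.87 on the wild-type UUO arrays, -7.27 and -8.16 on the Notch3-/- healthy arrays, and -6.07, -5.39 and -5.27 on the Notch3-/- UUO arrays. Within each genotype every UUO array was above every healthy array. No healthy array had the probe well above background in most of its spots, while all UUO arrays did, so the healthy levels are upper bounds. Of the 10 spots, 3 were well above background on wild-type healthy array 1, none on the other healthy arrays, 8 on Notch3-/- UUO array 1 and all 10 on the other UUO arrays.

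**Figure D2:**
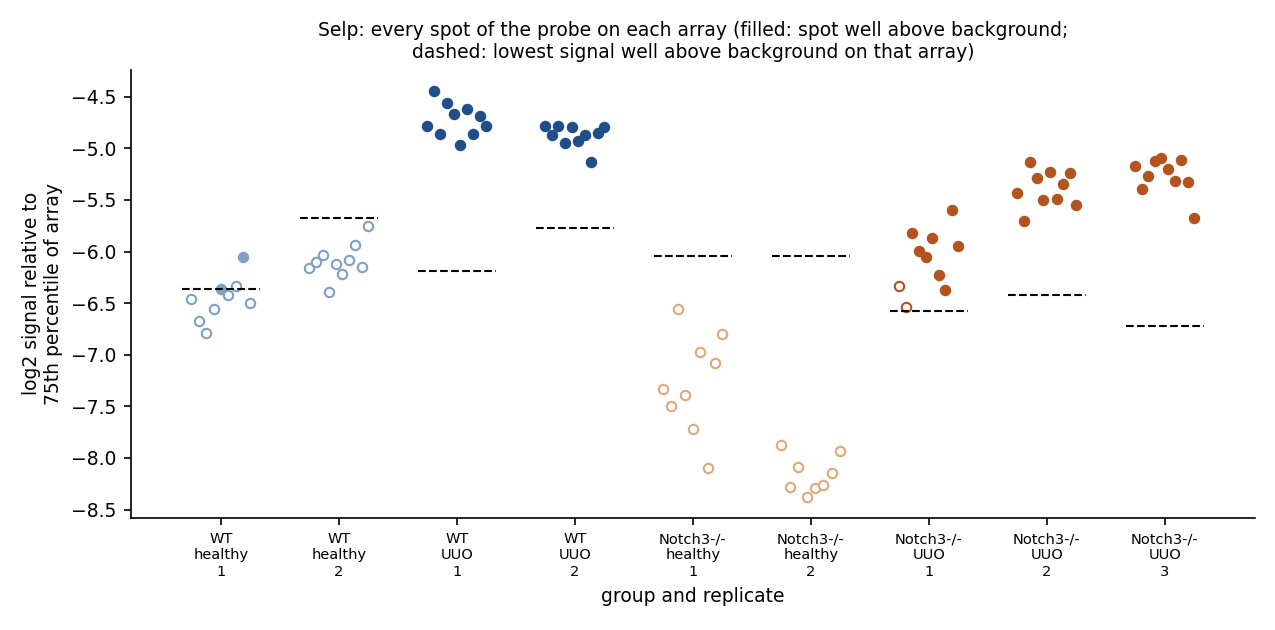
Every Selp spot on each array that was not marked an outlier (y axis, log2 signal relative to the array's 75th percentile; x axis, group and replicate; filled, spot well above background; dashed line, lowest signal well above background on that array). The spots of 1 array spread by an SD of 0.11 to 0.47, and all spots of the wild-type UUO arrays lie above all spots of the healthy arrays.

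Against the lowest signal that counts as above background, the mean of Selp was at least 2.33-fold higher in wild-type UUO than in wild-type healthy kidneys (measured means -4.80 ± 0.11 and -6.28 ± 0.26, SD, n = 2 each). In Notch3-/- kidneys it was at least 1.38-fold higher (measured means -5.58 ± 0.43, SD, n = 3, and -7.71 ± 0.62, SD, n = 2). These bounds hold for the group means on this scale only and carry no interval. The measured difference, which is what limma tested, was 1.48 ± 0.37 (SE) in wild-type kidneys (interval 0.60 to 2.35, adjusted p from limma = 0.0293). In Notch3-/- kidneys it was 2.14 ± 0.34 (interval 1.34 to 2.94, adjusted p from limma = 0.00874). The size depended on the processing: with normexp correction (offset of 50) followed by quantile normalization it was 0.30 and 0.29 and no longer called (adjusted p 0.065 and 0.0534), and in the authors' deposited table it was 0.48 and 0.51 and called (limma, adjusted p 0.0352 and 0.0242). The wild-type call was also lost with quantile normalization (1.08, adjusted p 0.0757), with slide as a random block (adjusted p 0.0808), and when either wild-type healthy array or either wild-type UUO array was left out (adjusted p 0.0601 to 0.147). Without Notch3-/- UUO arrays 2 and 3 the Notch3-/- difference was 1.64 (adjusted p 0.162, 1 UUO array left), with a term for them it had an adjusted p of 0.0757, and within the 1 slide that held both Notch3-/- groups it was 1.70 (adjusted p 0.125).

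Sele encodes E-selectin, which endothelial cells make anew after activation. Its only probe (A_51_P455326) was well above background on 1 of the 9 arrays, wild-type UUO array 1, at -5.45. The other wild-type UUO array was at -7.93, the wild-type healthy arrays at -6.73 and -7.88, both Notch3-/- healthy arrays at -8.06, and the Notch3-/- UUO arrays at -8.69, -8.54 and -8.77. A single array therefore carried the measurable signal, and no size of a group difference is given for Sele. Where the filter on dim probes was dropped (32451 genes and transcripts tested), limma called Sele in none of the 5 comparisons (adjusted p 0.193 to 0.755).

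Selplg encodes PSGL-1, the mucin-like ligand on leukocytes to which P-selectin binds best. On its brighter probe (A_51_P131358) the levels were -2.55 and -2.14 on the wild-type healthy arrays, -0.22 and -0.14 on the wild-type UUO arrays, -3.11 and -2.49 on the Notch3-/- healthy arrays, and -0.17, -0.10 and -0.13 on the Notch3-/- UUO arrays. The 5 UUO arrays lay between -0.22 and -0.10, above all 4 healthy arrays. Selplg rose by 2.16 ± 0.23 in wild-type kidneys, a 4.48-fold difference (95% interval of the log2 value 1.61 to 2.71, adjusted p from limma = 0.00215). In Notch3-/- kidneys it rose by 2.66 ± 0.21, or 6.34-fold (interval 2.16 to 3.17, adjusted p from limma = 0.000771). Its dimmer probe (A_55_P1976212) rose as well, by 1.81 ± 0.27 in wild-type and by 1.70 ± 0.25 in Notch3-/- kidneys (adjusted p over 29336 probes 0.00659 and 0.00678). Without Notch3-/- UUO arrays 2 and 3 the brighter probe's difference was 2.63 (adjusted p 0.0456). Of the 7 genes, Selplg alone was called in both genotypes under every setting that was run.

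Icam1 encodes the inducible ligand of the leukocyte integrins LFA-1 and Mac-1. Its probe (A_52_P613241) was at -3.79 and -3.06 on the wild-type healthy arrays and at -0.61 and -0.73 on the wild-type UUO arrays. It was at -3.71 and -3.17 on the Notch3-/- healthy arrays and at -1.38, -1.23 and -1.17 on the Notch3-/- UUO arrays. Healthy arrays of the genotypes overlapped, the UUO arrays were all higher, and the 3 Notch3-/- UUO arrays all lay below the 2 of the wild type. The wild-type rise was 2.76 ± 0.28, a 6.77-fold difference (interval 2.10 to 3.42, adjusted p from limma = 0.00177). The Notch3-/- rise was 2.18 ± 0.25, or 4.54-fold (interval 1.58 to 2.78, adjusted p from limma = 0.00265). With only 1 Notch3-/- UUO array, after arrays 2 and 3 were left out, the difference was 2.06 with an adjusted p of 0.0941, and with a term for them the adjusted p was 0.0347.

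Icam2 encodes a second ligand of LFA-1, carried by resting endothelium. Its level (probe A_55_P1982049) was 1.62 and 1.53 on the wild-type healthy arrays, 1.56 and 1.53 on the wild-type UUO arrays, 1.12 and 1.40 on the Notch3-/- healthy arrays, and 1.53, 1.45 and 1.66 on the Notch3-/- UUO arrays. The 2 Notch3-/- healthy arrays were the lowest of all, and the other 7 lay between 1.45 and 1.66. The wild-type difference was -0.03 ± 0.15 with an interval from -0.38 to 0.32 (adjusted p from limma = 0.90). In Notch3-/- kidneys it was 0.29 ± 0.13, from -0.03 to 0.61 (adjusted p from limma = 0.154), and without Notch3-/- UUO arrays 2 and 3 it was 0.27 (adjusted p 0.576). The upper ends of these intervals lie below the lower ends of the matching intervals of Icam1.

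Jam2 encodes JAM-B, an endothelial junction protein that binds JAM-C and the integrin VLA-4, and its 2 probes gave different results. The brighter probe (A_55_P2123502) was at -1.86 and -3.09 on the wild-type healthy arrays, -1.17 and -0.97 on the wild-type UUO arrays, -3.21 and -2.98 on the Notch3-/- healthy arrays, and -1.98, -1.45 and -1.25 on the Notch3-/- UUO arrays. The wild-type healthy arrays differed by more from each other than array 1 did from the UUO arrays. On this probe Jam2 rose by 1.41 ± 0.41 in wild-type kidneys (2.65-fold, interval 0.42 to 2.39, adjusted p from limma = 0.048) and by 1.53 ± 0.38 in Notch3-/- kidneys (2.90-fold, interval 0.63 to 2.43, adjusted p from limma = 0.0289).

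The dimmer Jam2 probe (A_55_P2381926) was well above background on all arrays too, at -2.43 and -2.00, -2.30 and -2.44, -2.51 and -2.67, and -2.70, -3.00 and -2.84 in the same order of groups. It did not rise: its difference was -0.15 ± 0.19 in wild-type (adjusted p over the probes 0.589) and -0.26 ± 0.17 in Notch3-/- kidneys (adjusted p 0.309). The mean of both probes was higher by 0.63 and 0.64 after obstruction. Over the alternative settings that used the brighter probe, its wild-type call was kept in 8 of 22 and its Notch3-/- call in 12 of 23. Without wild-type healthy array 2 the wild-type difference was 0.79 (adjusted p 0.13), and without Notch3-/- UUO arrays 2 and 3 the Notch3-/- difference was 1.11 (adjusted p 0.383).

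**Figure D3:**
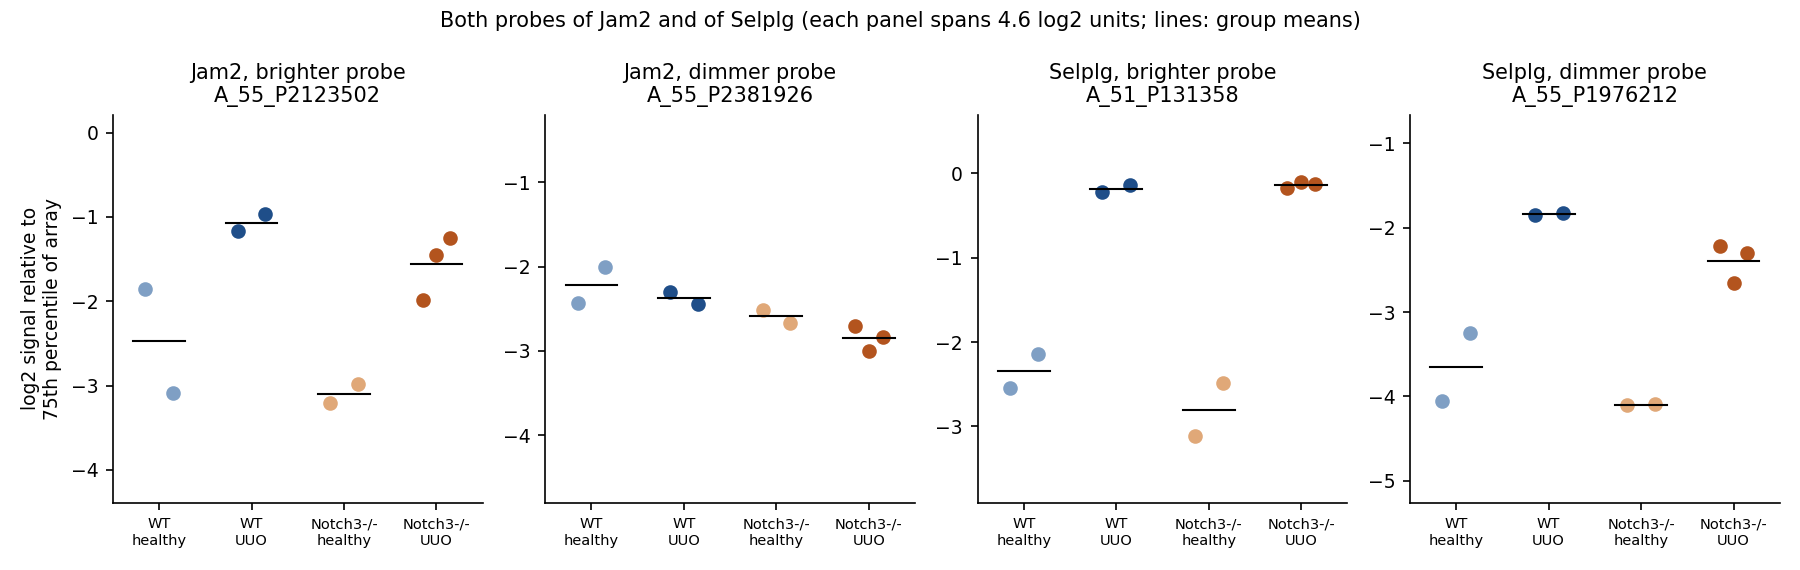
Levels of both probes of Jam2 and of Selplg (y axis, log2 signal relative to the array's 75th percentile; x axis, group; points, arrays; lines, group means; all panels span the same number of log2 units). Both Selplg probes are higher on the UUO arrays, whereas the brighter Jam2 probe is higher there and the dimmer one stays between -3.00 and -2.00 on every array.

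Jam3 encodes JAM-C, the partner of JAM-B at endothelial contacts and a ligand of Mac-1. Its level (probe A_51_P358354) was 0.70 and 0.80 on the wild-type healthy arrays and 0.91 and 0.66 on the wild-type UUO arrays, and it was 0.42 and 0.73 on the Notch3-/- healthy arrays and 0.86, 0.95 and 0.99 on the Notch3-/- UUO arrays. The wild-type groups overlapped, and the 3 Notch3-/- UUO arrays lay above both Notch3-/- healthy ones. The wild-type difference was 0.04 ± 0.16 (interval -0.34 to 0.42, adjusted p from limma = 0.894). The Notch3-/- difference was 0.35 ± 0.15 (interval 0.01 to 0.70, adjusted p from limma = 0.115). It passed the threshold under 2 of 24 alternative settings, array weights (0.39, adjusted p 0.0458) and normexp correction followed by quantile normalization (0.43, adjusted p 0.0408). Without Notch3-/- UUO arrays 2 and 3 it was 0.28 (adjusted p 0.621).

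None of the 6 tested genes was called between the genotypes, in obstructed or in healthy kidneys, and none in the difference of the 2 obstruction responses. The first of these is the comparison the design text names, Notch3-/- UUO against wild-type UUO, where limma called 0.302% of all genes (72 of 23878, with 4003 at an unadjusted p under 0.05). Icam1 was lower by 0.59 on the log2 scale in Notch3-/- UUO kidneys (-0.59 ± 0.25, interval -1.19 to 0.01, adjusted p from limma = 0.303). The Selp value was -0.78 ± 0.34 (interval -1.58 to 0.02, adjusted p from limma = 0.309) and that of Jam2 -0.49 ± 0.38 (interval -1.39 to 0.41, adjusted p from limma = 0.558). For these 3 genes every Notch3-/- UUO array was below every wild-type UUO array. The share of all genes whose arrays separate in such a way is not given here, so this and the other separations only describe the levels. Without Notch3-/- UUO arrays 2 and 3 the values were -0.71 for Icam1 (adjusted p 0.48), -1.28 for Selp (adjusted p 0.297) and -0.91 for Jam2 (adjusted p 0.496). The dimmer Selplg probe was also lower on every Notch3-/- UUO array (-2.22, -2.65 and -2.30, against -1.85 and -1.82), at -0.56 ± 0.25 (adjusted p from limma over the probes 0.332). So was the dimmer Jam2 probe, at -0.48 ± 0.17 (adjusted p from limma over the probes 0.248). The brighter Selplg probe (0.05 ± 0.21), Icam2 (0.00 ± 0.13) and Jam3 (0.15 ± 0.15) had overlapping arrays. The median over the 6 members was -0.24, against 0.00 over all genes.

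In healthy kidneys 0.515% of all genes were called between the genotypes. The Selp probe read 1.44 lower on the Notch3-/- arrays (-1.44 ± 0.37, adjusted p from limma = 0.136), but it was not well above background on any of these 4 arrays, so no fold is given. Icam2 was at -0.32 ± 0.15 (interval -0.67 to 0.03, adjusted p from limma = 0.321), with both Notch3-/- arrays below both wild-type ones. On the brighter or only probe, the differences of Selplg (-0.45 ± 0.23), Jam2 (-0.62 ± 0.41), Jam3 (-0.17 ± 0.16) and Icam1 (-0.02 ± 0.28) came from groups that overlapped. On the dimmer probes of Selplg (-0.44 ± 0.27) and Jam2 (-0.38 ± 0.19) both Notch3-/- arrays lay below both wild-type ones. Neither dimmer probe was called (adjusted p from limma over the probes 0.456 and 0.362). The wild-type and Notch3-/- obstruction responses differed by -0.58 ± 0.37 for Icam1, 0.50 ± 0.31 for Selplg on its brighter and -0.11 ± 0.37 on its dimmer probe, 0.13 ± 0.56 for Jam2, and 0.32 for both Icam2 (SE 0.20) and Jam3 (SE 0.22). No gene of the 23878 was called in this comparison (0% by limma; the lowest adjusted p was 0.162, and 1698 genes had an unadjusted p under 0.05). No size is given for Selp, whose healthy levels are bounds (adjusted p from limma = 0.818). Without Notch3-/- UUO arrays 2 and 3 the differences were -0.70 for Icam1, 0.47 for Selplg, -0.29 for Jam2, 0.30 for Icam2 and 0.24 for Jam3, none called. The intervals of the full comparison were wide: that of Icam1 ran from -1.47 to 0.31 and that of Jam2 from -1.21 to 1.46.

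**Figure D4:**
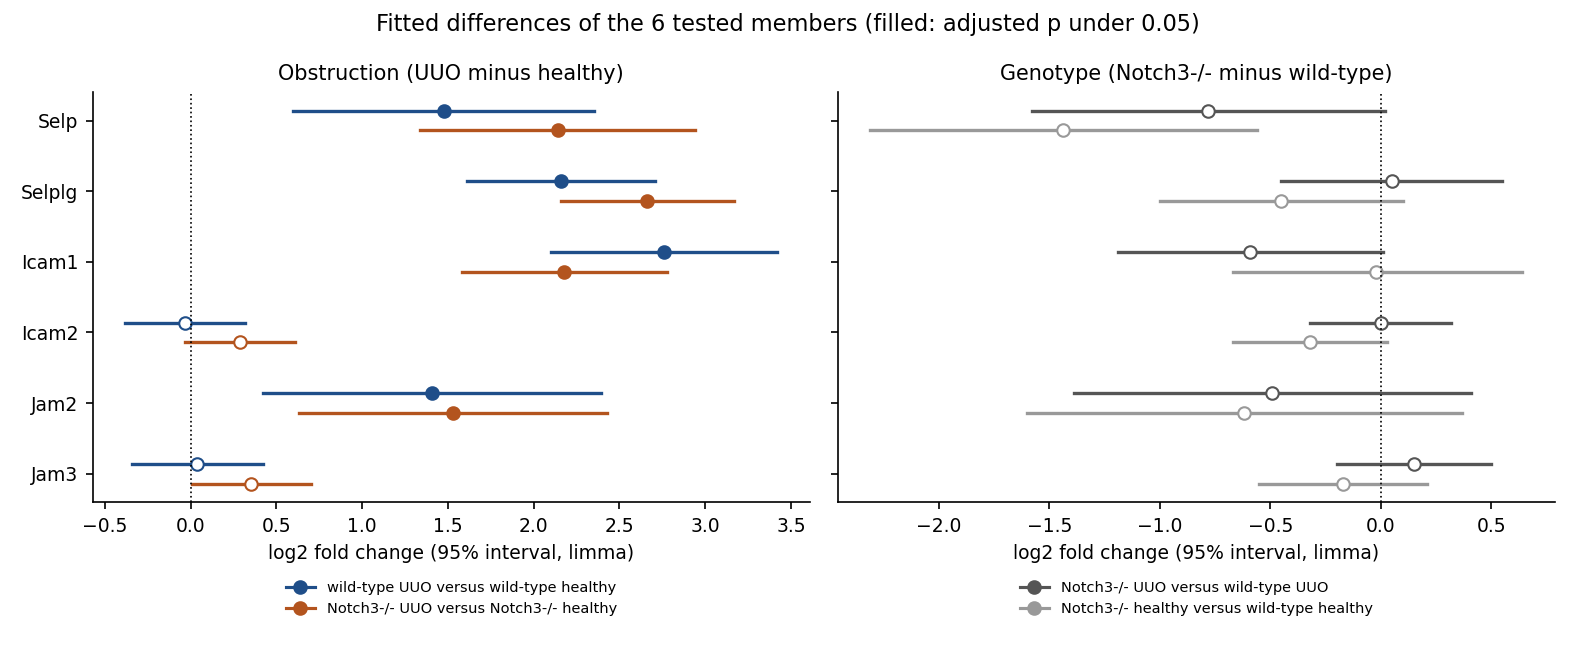
Fitted log2 fold changes of the 6 tested genes (points) with 95% intervals (bars), UUO minus healthy in each genotype on the left and Notch3-/- minus wild-type in each condition on the right; filled points have an adjusted p under 0.05. The 4 genes that rose lie at 1.41 or above in both genotypes, and no genotype difference is filled. The Selp values rest on healthy arrays not well above background, and Jam2 is shown by its brighter probe, while its dimmer probe did not rise.

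Around these 7 genes, 4 lists of genes that work with them were examined. The shares of all genes to set beside the counts are 14.1% rising and 11.7% falling in wild-type kidneys. In Notch3-/- kidneys they are 13.3% and 13.9%. Of 13 tested integrins and other immunoglobulin-family adhesion molecules, 9 rose and none fell in wild-type kidneys, and 8 rose and 1 fell in Notch3-/- kidneys (medians 1.03 and 1.37). Vcam1, the endothelial ligand of the integrin VLA-4, rose by 4.61 ± 0.24 and 4.90 ± 0.22. Itgb2, the shared beta chain of LFA-1 and Mac-1 and so of the receptors of Icam1, rose by 1.76 ± 0.25 and 2.32 ± 0.23. Itga4, the alpha chain of VLA-4, rose by 1.55 ± 0.20 and 2.16 ± 0.18, Itgal, the alpha chain of LFA-1, by 0.89 ± 0.18 and 1.37 ± 0.17, and Itgax by 2.25 ± 0.36 and 1.52 ± 0.33. The gene called as falling was Itgam, the alpha chain of Mac-1, at -0.92 ± 0.20, but its 3 probes disagreed: a dimmer probe (A_55_P1977929) rose by 1.24 ± 0.17 in the same kidneys.

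Among 18 tested selectin partners and enzymes that build selectin ligands, 6 rose and 3 fell in wild-type kidneys, and 8 rose and 2 fell in Notch3-/- kidneys (median 0.57 in both). Cd44, a hyaluronan receptor that can also carry E-selectin ligands, rose by 3.73 ± 0.38 and 3.14 ± 0.35. Spn, the leukocyte sialomucin CD43, rose by 1.61 ± 0.22 and 2.02 ± 0.20, and Cd24a, a surface glycoprotein that can bind P-selectin, by 1.33 ± 0.29 and 1.40 ± 0.26. Fut4, a fucosyltransferase that completes selectin ligands, rose in Notch3-/- kidneys by 2.85 ± 0.53 and had an adjusted p of 0.0538 in wild-type kidneys (1.88 ± 0.58). Glg1, which encodes an E-selectin ligand of the Golgi, fell in both genotypes (-0.64 ± 0.17 and -0.59 ± 0.15), as did the branching enzyme Gcnt1 (-1.33 ± 0.36 and -1.23 ± 0.32). Podxl, a sialomucin of podocytes and endothelium, fell in wild-type kidneys (-1.07 ± 0.21) and was not called in Notch3-/- kidneys (0.24 ± 0.20), a difference between genotypes that was itself not called.

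Of 16 junction and transmigration molecules, 7 rose in each genotype and none fell (medians 0.52 and 0.56). Jaml, a leukocyte protein of the junctional adhesion family, rose by 2.22 ± 0.24 and 2.22 ± 0.21, Cd99, which acts late in passage between endothelial cells, by 1.31 ± 0.13 and 0.98 ± 0.12, Sirpa by 1.20 ± 0.16 and 1.32 ± 0.14, and Nectin2 by 1.87 ± 0.30 and 1.59 ± 0.27. F11r, which encodes the remaining classical family member JAM-A, was not called at 0.32 ± 0.19 and 0.34 ± 0.18. Of 16 cytokines, receptors and regulators known to act on endothelial adhesion molecules, 11 rose in wild-type and 14 in Notch3-/- kidneys and none fell (medians 1.58 and 1.50). Tnf, which encodes tumour necrosis factor, was not well above background on any healthy array and was at least 4.54-fold higher in wild-type UUO kidneys and at least 4.36-fold higher in Notch3-/- UUO kidneys (adjusted p from limma 0.000864 and 0.000453). Il1b, which encodes interleukin-1 beta, rose by 2.15 ± 0.18 and 1.64 ± 0.17, Tnfaip3, an inducible brake on NF-kB, by 2.48 ± 0.22 and 2.02 ± 0.20, and the NF-kB subunit Nfkb2 by 2.51 ± 0.29 and 1.84 ± 0.26. Ifng, which encodes interferon gamma, was at least 4.17-fold higher in Notch3-/- UUO than in Notch3-/- healthy kidneys (adjusted p from limma = 0.00125) and not called in wild-type kidneys (-0.22 ± 0.28). Its difference of responses between genotypes was not called (adjusted p from limma = 0.224).

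**Figure D5:**
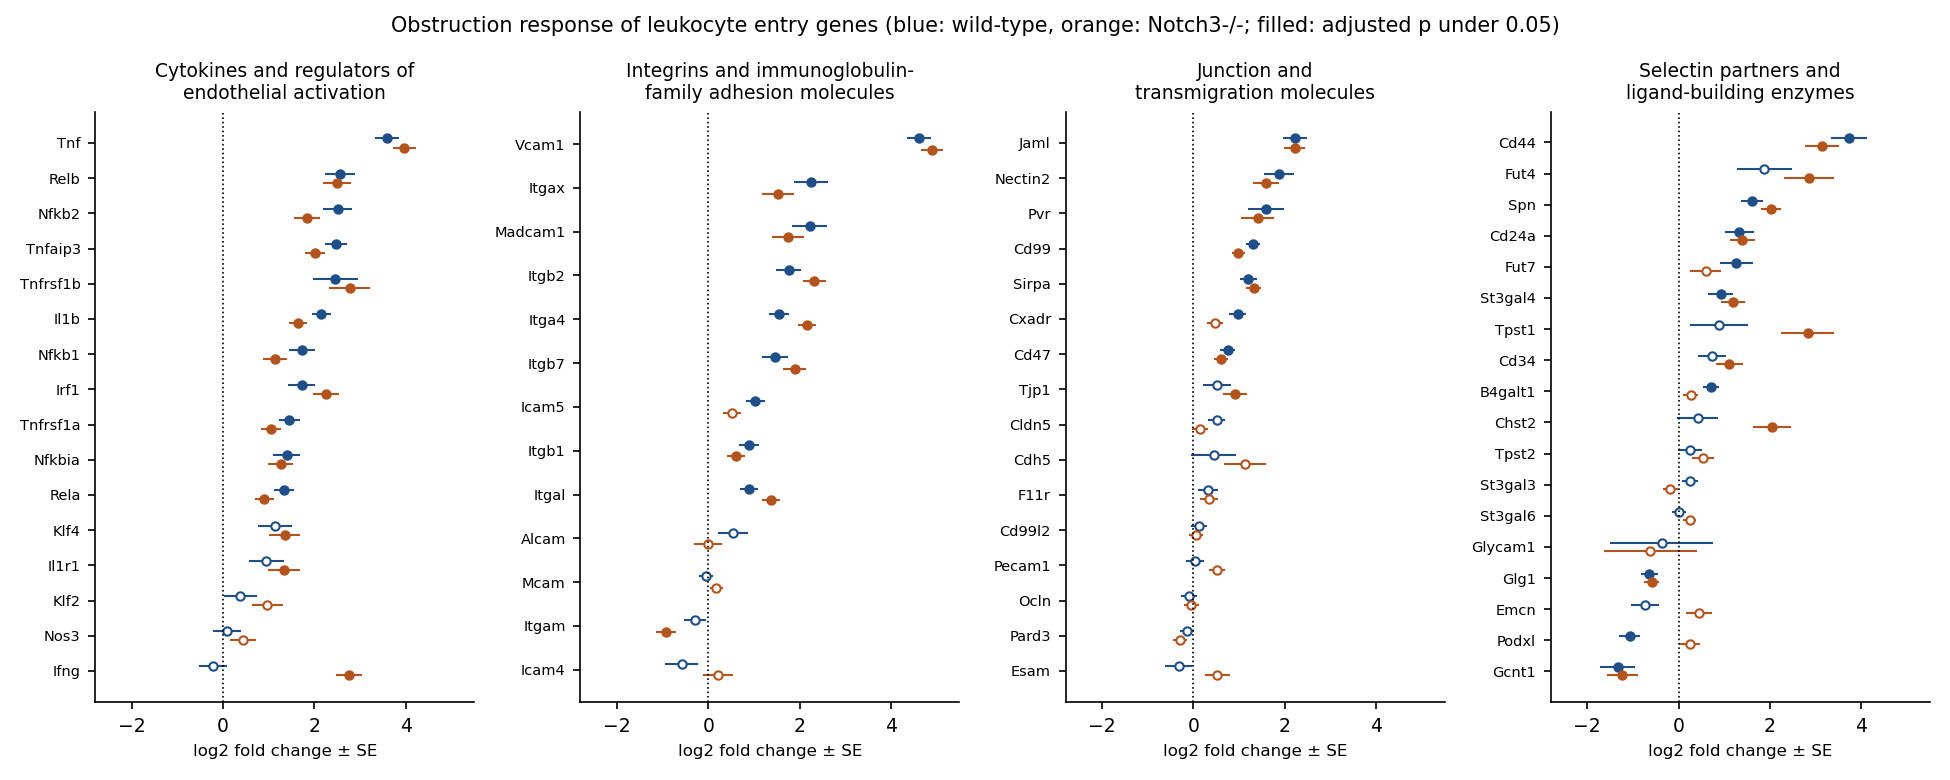
Log2 fold change of UUO over healthy kidneys (x axis, with SE bars) for every tested gene of the 4 lists, wild-type in blue and Notch3-/- in orange; filled points have an adjusted p under 0.05. Vcam1 reaches 4.61 and 4.90, most filled points lie to the right of 0, and Gcnt1 and Glg1 are filled to its left in both genotypes.

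No gene of these lists was called between the genotypes in UUO or in healthy kidneys, nor in the difference of the obstruction responses. Leaving out Notch3-/- UUO arrays 2 and 3, which leaves 1 UUO array, lowered the calls in Notch3-/- kidneys in each list. With a term for those arrays the calls were 5 of the integrin and immunoglobulin list and 2 of the selectin partners. They were 4 of the junction molecules and 7 of the cytokines and regulators. The share of all genes called under these 2 settings is not given here, so the drop is not a result about the lists.

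Markers of the cells that carry these molecules moved to different extents. Over all genes 14.1% rose and 11.7% fell in wild-type kidneys, and 13.3% rose and 13.9% fell in Notch3-/- kidneys. All 18 endothelial markers were well above background on all 9 arrays. Of them, 3 fell and none rose in wild-type kidneys (median -0.14; Flt1 -0.99, Ehd3 -0.81, Tek -0.80), and 4 rose and none fell in Notch3-/- kidneys (median 0.54; Robo4 1.03, Plvap 0.99, Eng 0.70, Egfl7 0.55). Their summed signal was 52.5 to 55.1 times the 75th percentile on the wild-type healthy arrays, 49.0 to 57.2 on the wild-type UUO arrays, 37.9 to 38.1 on the Notch3-/- healthy arrays and 50.1 to 54.9 on the Notch3-/- UUO arrays. The low endothelial sum of the Notch3-/- healthy arrays was seen on the same arrays as the lowest levels of Icam2.

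Monocyte and macrophage markers rose beside Selplg and Icam1, and markers of other leukocytes rose in smaller numbers, some of them near the share of all genes. Of 9 tested monocyte and macrophage markers, 8 rose in each genotype, and in Notch3-/- kidneys the remaining one, Itgam, was called as falling on its brightest probe. The mean log2 level of all 10 such markers on the array, tested or not, was -2.26 to -2.22 on the wild-type healthy arrays and 0.50 to 0.58 on the wild-type UUO arrays. It was -2.21 to -1.69 and 0.40 to 0.50 on the Notch3-/- healthy and UUO arrays. Of 11 tested neutrophil markers 6 rose in wild-type and 1 in Notch3-/- kidneys, of 11 T and NK cell markers 4 and 7, and of 6 B cell markers 3 and 1. Over all genes 14.1% rose in wild-type and 13.3% in Notch3-/- kidneys. The counts of 1 rising marker, here and for platelets below, are near these shares. The summed signal of all 12 neutrophil markers on the array, tested or not, was not higher on the UUO arrays (66.4 to 73.7, against 68.8 to 92.5 on the healthy arrays). Nearly all of that sum came from Csf3r, at 6.01 to 6.51 on every array, so it says little about the other markers. The mean log2 level of the same 12 neutrophil markers was higher on the UUO arrays (-3.60 to -3.08, against -4.55 to -3.69). Among 7 tested markers of platelets, the other cells that store P-selectin, 1 rose in wild-type kidneys, and 2 rose and 1 fell in Notch3-/- kidneys. Of 8 proximal tubule markers 7 fell in each genotype. The part of these cell types in the levels of the 7 genes was not tested.

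For each tested member the 3 genes with the most similar pattern over the 9 arrays were found among 16599 genes, by the root mean square difference of levels after each gene was centred on its own mean. The values are a description of 9 arrays that share groups and slides. Closest to Icam1 were H2-DMa (0.22), H2-Aa (0.22) and Ctxn1 (0.23). Selplg was matched by H2-Eb1, Il10ra and Tnfrsf18 (0.12 each), and Selp by Cxcr4 (0.26), Il1rl1 (0.28) and Slc8a2 (0.29). Nearest to Jam2, on its brighter probe, were Heg1 (0.15), Tmsb4x (0.16) and Slc7a6 (0.17). The flat patterns of Icam2 and Jam3 were nearest to Pcdh12 (0.07), Tsc22d4 and Lsm14a (0.08 each) and to Zfp868, Lima1 and Tsc22d4 (0.09 each).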

How the data were processed

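RNA of kidney cortex was labelled with Cy3 and hybridised to 9 one-colour Agilent arrays. The processed, median spot and background signals are intensities that the authors deposited as scanner output, made with Agilent Feature Extraction (10.7.3.1 per the file headers, 10.5 per the submitters' processing notes). The deposited value table holds the authors' log2 values, not centred per gene (column medians 7.02 to 7.05, correlation with the processed signals 0.971 to 0.986 per array). Its normalization by the authors is not stated in any source used here, and it served as an alternative only.

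Outlier spots, 117 to 204 on an array, were dropped, except that 64 probe values with outlier spots only were retained. No spot was saturated. The processed signals were put on a log2 scale against the 75th percentile of their array, and spots of a probe were averaged. Accessions were matched to RefSeq (GRCm38.p6), which named 27242 of 39429 probes. Of these 39429, 29336 were well above background on 2 or more arrays and were kept, and the brightest stood for its gene. The 4 group means were estimated together in limma 3.58.1 (R 4.3.3; 5 residual degrees of freedom), with Benjamini-Hochberg adjustment over 23878 genes and a threshold of 0.05. Tested on simulated data, the fit returned the planted sizes on average but called only some of the changed genes, fewest for the difference of responses. An "at least" fold sets the brighter group's mean against the higher of the dim probe's signal and the lowest signal well above background on each array. It holds for the means on this scale and has no interval. An adjusted p beside it tests the measured difference and not the bound.

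The 7 genes, the gene lists, the markers and the tests were chosen with earlier results of these data known, and 1 gene of a list is not reported here. The 6 tested genes were named in every comparison, and Sele was described by its levels. From each list up to 4 genes per comparison with the smallest adjusted p were named, and also genes that make up a small count (Itgam, Gcnt1, Glg1 and the called endothelial markers), Fut4 in wild-type kidneys, F11r, Icam4, Icam5, Tpst1, Tpst2 and Fut7, chosen after their values were seen. The alternatives were 25 in number: normalization, background correction, filters, probe choice, moderation, array weights, slide and replicate blocks, threshold, samples fitted, the authors' table, leaving out each array, and 3 added after seeing the data. The number of arrays limits the precision. Because the array grid and the gene table use different assemblies, positions are given for the RefSeq windows only.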

Additional observations from a re-analysis of the deposited data

How the results depend on the processing

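In wild-type kidneys Icam1 (1.91 to 3.12) and Selplg (1.73 to 2.37) were called under all 23 alternatives. In Notch3-/- kidneys Selplg (2.09 to 2.97) was called under all 24 and Icam1 (1.47 to 2.45) under 23, all but the fit without Notch3-/- UUO arrays 2 and 3. No direction of a called member reversed, and no member was called between genotypes or in the difference of responses under any alternative run. The 4 calls in wild-type kidneys became 2 with quantile normalization, with slide as a random block and at a threshold of 0.01, and ranged from 2 to 4 when single arrays were left out. The 4 calls in Notch3-/- kidneys became 2 with slide as a fixed block, 1 without UUO arrays 2 and 3, and 2 with a term for them. Correlations of deviations between same-numbered arrays were -0.209 to 0.157. Between healthy and UUO arrays of the same genotype they were 0.094 in wild-type and 0.157 and 0.07 in Notch3-/- kidneys. They cannot tell whether the numbers pair the arrays, because the 2 arrays of a group deviate from their mean by equal and opposite amounts. With a replicate block the calls were 2 in each genotype (adjusted p of Selp 0.0799 and 0.077, of Jam2 0.111 and 0.154), and 0 members were called between the healthy groups with a replicate block or with crossed numbers. The cause of these shifts was not tested. Signal over background limits Selp and Sele: healthy Selp levels and nearly all Sele levels are bounds.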

Other observations

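Icam4 and Icam5 follow Icam1 on the chromosome in the RefSeq gene table. Icam5, known from neurons, rose in wild-type kidneys by 1.03 ± 0.19 (adjusted p from limma = 0.0131) and had an adjusted p of 0.0693 in Notch3-/- kidneys (0.52 ± 0.18). Its difference of responses between genotypes was not called (adjusted p from limma = 0.747). Icam4, known from red cells, was not called in either genotype (-0.58 ± 0.34 and 0.22 ± 0.31).

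Some enzymes that finish PSGL-1 for binding were looked at after their values were seen. Tpst1, which sulfates its tyrosines, was at least 2.89-fold higher in Notch3-/- UUO than in Notch3-/- healthy kidneys (adjusted p from limma = 0.0169) and not called in wild-type kidneys (0.89 ± 0.61). Tpst2, the other such enzyme, was not called in either genotype (0.26 ± 0.24 and 0.54 ± 0.22). Fut7 rose in wild-type kidneys (1.26 ± 0.34, adjusted p from limma = 0.0376) and was at 0.59 ± 0.31 in Notch3-/- kidneys. The difference between genotypes in the response was not called for any of these enzymes.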
